A study of Mus musculus with 75 samples.

Results

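The Cyp4 genes encode cytochrome P450 enzymes that hydroxylate the end (omega) carbon of fatty acids and of fatty acid derivatives such as leukotrienes. Of 8 genes listed for the family (Cyp4a10, Cyp4a14, Cyp4b1, Cyp4f13, Cyp4f14, Cyp4f15, Cyp4f16 and Cyp4v3), 6 were named in the array annotation used here, each by 1 probe set, among 19147 genes in all. Cyp4a10 and Cyp4f14 were not analysed here. Their levels were measured on 75 arrays, 39 of liver and 36 of epididymal white fat, from male C57BL/6 mice.

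The mice either carried CB1R-/- alleles, which remove cannabinoid receptor 1 (CB1), or were control littermates, called wild-type below. The CB1R-/- line had been back-crossed to C57BL/6J and then re-derived onto C57BL/6N. Beginning at 2 months of age, mice of each genotype ate either chow (13% of kcal as fat) or a high-fat diet (59.4% of kcal as fat) over 14 weeks, and each was housed alone for the last week before dosing. They were then gavaged in the late afternoon of 2 days with AM251, an inverse agonist of CB1, at 10 mg/kg or with its vehicle, 0.5% methylcellulose, and tissue was taken on the morning of day 3. The 16 groups of tissue, diet, genotype and treatment held 5 arrays each, apart from the high-fat knockout vehicle group (4 in liver and 3 in fat) and the chow knockout AM251 group in fat (3).

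Omega-hydroxylation is the first step of a side route of fatty acid breakdown. Alcohol and aldehyde dehydrogenases turn the product into a dicarboxylic acid, and peroxisomes shorten that acid. In mouse liver the Cyp4a genes are classical targets of the fatty acid receptor PPAR alpha and are known to rise with fasting and with PPAR alpha agonists, whereas Cyp4f enzymes are known for inactivating leukotrienes and other eicosanoids.

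The arrays fitted their tissue labels: all 7 measured hepatocyte markers lay above the median gene in liver and 0 of 7 did in fat, while 6 of 6 adipocyte markers did in fat and 2 of 6 in liver. An array's correlation with the other arrays of its tissue averaged 0.963 to 0.991 in liver, lowest for chow knockout vehicle array 17, and 0.977 to 0.99 in fat, lowest for high-fat wild-type AM251 array 34. Cnr1, the gene of CB1, was not clearly lower in the arrays labelled knockout. In fat of vehicle-treated mice its log2 intensity was 6.91 ± 0.43 (SD, n = 5) in knockouts and 7.24 ± 0.56 (SD, n = 5) in wild-type mice on chow, and 6.38 ± 0.47 (SD, n = 3) and 6.18 ± 0.27 (SD, n = 5) on high-fat diet. Under AM251 it was higher in knockout fat: 7.14 ± 0.29 (SD, n = 3) against 6.16 ± 0.88 (SD, n = 5) on chow (adjusted p = 0.137), and 6.2 ± 0.72 against 5.29 ± 0.19 (SD, n = 5 each) on high-fat diet (adjusted p = 0.0498). These are the groups of the genotype comparisons of Cyp4b1 and Cyp4v3 under AM251. Whether this probe set lies in the deleted part is not given in the sources used here, so it does not check the genotype labels, and "knockout" below means arrays labelled so. No label says that 2 arrays of a group share or do not share an extraction, so p-values measure the spread between these arrays.

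The stretches just upstream of 5 of the 6 measured genes are shown because Cyp4f13, Cyp4f15 and Cyp4f16 are neighbours on chromosome 17 of which Cyp4f13 alone passed a test, and because Cyp4b1 and Cyp4v3, on other chromosomes, varied together in fat. Each is the 250 bases before the annotated start in RefSeq's GRCm38.p6 annotation, written on the gene's own strand. Cyp4a14 is not among them, as no entry was matched for it. RefSeq entries were matched for Cyp4f13 (chr17:32947362-32947611, minus strand), Cyp4f15 (chr17:32685409-32685658, plus), Cyp4f16 (chr17:32536307-32536556, plus), Cyp4b1 (chr4:115647722-115647971, minus) and Cyp4v3 (chr8:45333164-45333413, minus). Capitals mark ATTGG, the reverse of the CCAAT box, in the 3 Cyp4f genes, and CCGCCC, the reverse of the GC box GGGCGG, in Cyp4b1 and Cyp4v3.
Cyp4f13: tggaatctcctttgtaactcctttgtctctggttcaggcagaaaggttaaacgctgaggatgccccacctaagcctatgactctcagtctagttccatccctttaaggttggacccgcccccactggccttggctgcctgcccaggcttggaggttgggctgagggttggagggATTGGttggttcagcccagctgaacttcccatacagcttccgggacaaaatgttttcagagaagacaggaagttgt
Cyp4f15: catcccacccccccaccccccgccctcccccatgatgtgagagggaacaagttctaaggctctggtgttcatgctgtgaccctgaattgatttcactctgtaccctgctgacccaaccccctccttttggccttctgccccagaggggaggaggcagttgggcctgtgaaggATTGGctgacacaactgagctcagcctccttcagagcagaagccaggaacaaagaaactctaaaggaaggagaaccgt
Cyp4f16: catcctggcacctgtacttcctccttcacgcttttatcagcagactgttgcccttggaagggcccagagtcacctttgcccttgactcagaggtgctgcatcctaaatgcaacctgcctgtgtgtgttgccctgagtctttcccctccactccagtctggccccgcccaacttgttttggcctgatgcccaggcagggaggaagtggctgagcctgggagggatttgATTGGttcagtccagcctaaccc
Cyp4b1: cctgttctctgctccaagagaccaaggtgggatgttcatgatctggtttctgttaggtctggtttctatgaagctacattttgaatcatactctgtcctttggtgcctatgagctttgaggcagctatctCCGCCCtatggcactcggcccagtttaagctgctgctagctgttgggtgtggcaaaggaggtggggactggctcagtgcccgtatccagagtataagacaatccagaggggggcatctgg
Cyp4v3: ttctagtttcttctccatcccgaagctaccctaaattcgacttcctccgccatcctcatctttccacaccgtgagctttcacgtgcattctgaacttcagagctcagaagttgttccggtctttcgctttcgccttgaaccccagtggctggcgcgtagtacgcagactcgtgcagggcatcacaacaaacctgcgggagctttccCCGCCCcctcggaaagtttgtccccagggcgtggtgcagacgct
The reverse CCAAT box begins 76 bases before the start in Cyp4f13, 78 in Cyp4f15 and 23 in Cyp4f16, and CCAAT is on neither strand of the Cyp4b1 and Cyp4v3 windows. CCAAT was present on either strand in 33.8% of 32851 promoter windows of this length. GGGCGG was present once in each of the 5 windows, against 32.7% of all windows. TATAAA (12.4% of windows), the nuclear receptor element AGGTCA (14.0%) and its direct repeat AGGTCANAGGTCA (0.0335%), the form that PPAR alpha binds with its partner RXR, were in 0 of the 5 windows on either strand. The GC content of the windows was 51.6% to 56.8%.

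Group means of a member within a tissue spanned 3.59 for Cyp4a14 in liver, 1.55 for Cyp4v3 in fat and 1 for Cyp4b1 in fat, and 0.1 to 0.55 in the other 9 cases. Levels are log2 RMA intensities. Probe sets differ in response and it is not given whether RMA was run on both tissues together, so members are not ranked against each other and liver is not ranked against fat. Cyp4v3, the mouse counterpart of the human gene mutated in Bietti crystalline dystrophy of the retina, had liver group means of 12.11 to 12.31, and each array placed it between the 98.3 and the 99.1 percentile of its genes. Cyp4f15, an eicosanoid hydroxylase of liver, had liver group means of 10.78 to 11.1. Cyp4a14 had liver group means of 8.58 to 12.17, the widest range of the 6 members, with a pooled SD within groups of 0.77.

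In fat, Cyp4a14 lay between the 1.8 and the 8 percentile of genes, with group means of 3.06 to 3.22, so that its values there are those of a dim probe set. Cyp4b1, an enzyme that acts on shorter fatty acids and on foreign compounds, had fat group means of 10.44 to 11.44 and liver group means of 8.61 to 9.06. Cyp4v3 had fat group means of 9.57 to 11.11, with a pooled SD of 0.37. Cyp4f13 had group means of 8.44 to 8.99 in liver and 7.37 to 7.47 in fat. Cyp4f16 lay near the median gene of each liver array (percentile 45.7 to 55.8) and at the 61.3 to 67.1 percentile of each fat array. Cyp4f15 in fat ranged from the 34.4 to the 44.9 percentile.

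**Figure D1:**
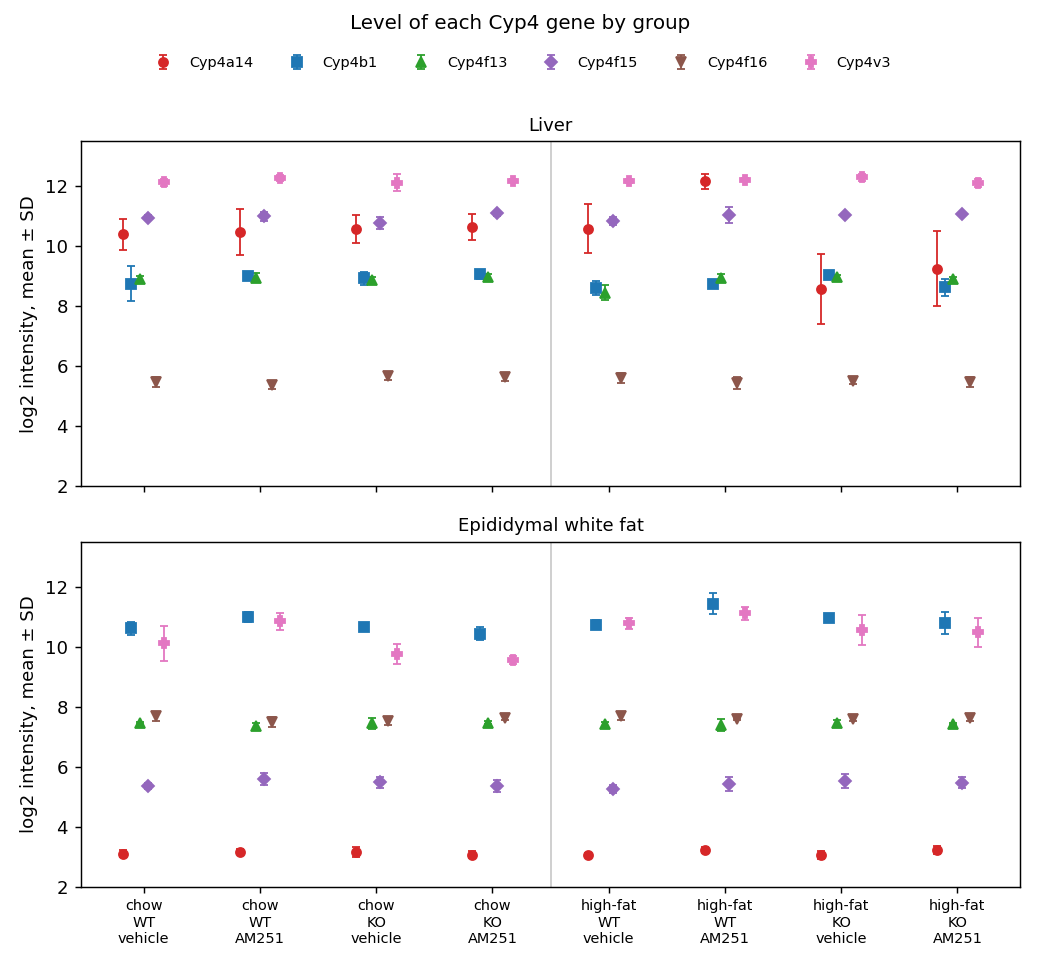
Mean log2 intensity of the 6 Cyp4 genes (vertical axis) in the 8 groups of liver (upper panel) and of epididymal fat (lower panel), with bars for the SD over 3 to 5 arrays. Cyp4a14 in liver spans 8.58 to 12.17 over the groups, while Cyp4v3 in liver stays between 12.11 and 12.31.

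Each member was tested in 31 comparisons with limma, with p-values adjusted over all 19147 genes by the Benjamini-Hochberg method at a threshold of 0.05. Cyp4f13 passed in 7 comparisons, Cyp4a14 in 4, Cyp4b1 in 2 and Cyp4v3 in 2. Cyp4f15 and Cyp4f16 passed in 0, with 4 and 5 comparisons at an unadjusted p under 0.05. That cutoff held for 644 to 6592 of the 19147 genes, by comparison. Many of the comparisons share groups, so the counts of calls are not independent of each other. Calls in liver were of Cyp4a14 and Cyp4f13, and calls in fat were of Cyp4b1 and Cyp4v3.

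AM251 against vehicle was called for 1 of 6 members in liver of high-fat wild-type mice (Cyp4f13, higher), where 1.91% of all genes were called, and for 1 in fat of high-fat wild-type mice (Cyp4b1, higher), where 1.11% were. In the other 6 comparisons of AM251 with vehicle limma called 0 members, as it called few or no genes at all: 0.0104% in liver of high-fat knockouts, 0.125% in liver of chow knockouts, 0.0157% in fat of chow knockouts, and 0% in liver of chow wild-type, fat of chow wild-type and fat of high-fat knockout mice. At an unadjusted p under 0.05 these 6 comparisons held 1, 1, 0, 0, 3 and 0 members in that order. In the same order 644, 2667, 1556, 2066, 2559 and 712 of all 19147 genes passed that cutoff. The difference of the AM251 effect between genotypes was called for 1 member in high-fat liver (Cyp4f13), against 0.564% of genes. It was called for 0 members in high-fat fat (0.407% of genes), chow fat (0.00522%) and chow liver (0%). At an unadjusted p under 0.05 these held 1, 3 and 0 members, and 2070, 2839 and 1437 of all genes. The AM251 effect differed between diets in wild-type mice for 0 members in liver (0.251% of genes) and 0 in fat (0%). Unadjusted, these held 2 and 0 members, and 1313 and 2001 of all genes.

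Knockout against wild-type mice under vehicle gave 2 called members in high-fat liver (Cyp4a14 lower, Cyp4f13 higher), against 1.19% of genes. It gave 0 in chow liver (6.77% of genes), high-fat fat (15.9%) and chow fat (0.0575%). At an unadjusted p under 0.05 these held 0, 0 and 1 members, and 4011, 5151 and 1733 of all genes. High-fat against chow diet under vehicle gave Cyp4f13 (lower) in wild-type liver, where 1.69% of genes were called, Cyp4a14 (lower) in knockout liver, where 17% were, and Cyp4v3 (higher) in wild-type fat, where 24.5% were. A share of 1 in 6 members is near or below the background in the knockout liver and wild-type fat comparisons. In knockout fat, with 3 high-fat arrays, limma called 0 members and 0.00522% of genes. There 1 member and 1353 of all genes had an unadjusted p under 0.05.

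Effects that differed between tissues in wild-type mice were called for Cyp4f13, both for AM251 on high-fat diet (1.72% of genes) and for the high-fat diet itself (14.2%). For AM251 on chow 0 members and 0.0209% of genes were called, with 1 member and 2868 genes at an unadjusted p under 0.05. A further 6 comparisons were added after values had been seen. Knockout against wild-type mice under AM251 was called for Cyp4a14 in high-fat liver (lower, 2.3% of genes). In fat it was called for Cyp4b1 on high-fat diet (lower, 15.2%) and for Cyp4v3 on chow (lower, 3.39%). In chow liver it was called for 0 members (0.324%), with 1 member and 2604 genes at an unadjusted p under 0.05. For the tissue difference of the diet effect and for high-fat fat under AM251, too, 1 of 6 members is near the background. The genotype effect under vehicle differed between diets for Cyp4a14 and Cyp4f13 in liver (4.17% of genes) and for 0 members in fat (6.34%). In fat 0 members and 3927 of all genes had an unadjusted p under 0.05.

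**Figure D2:**
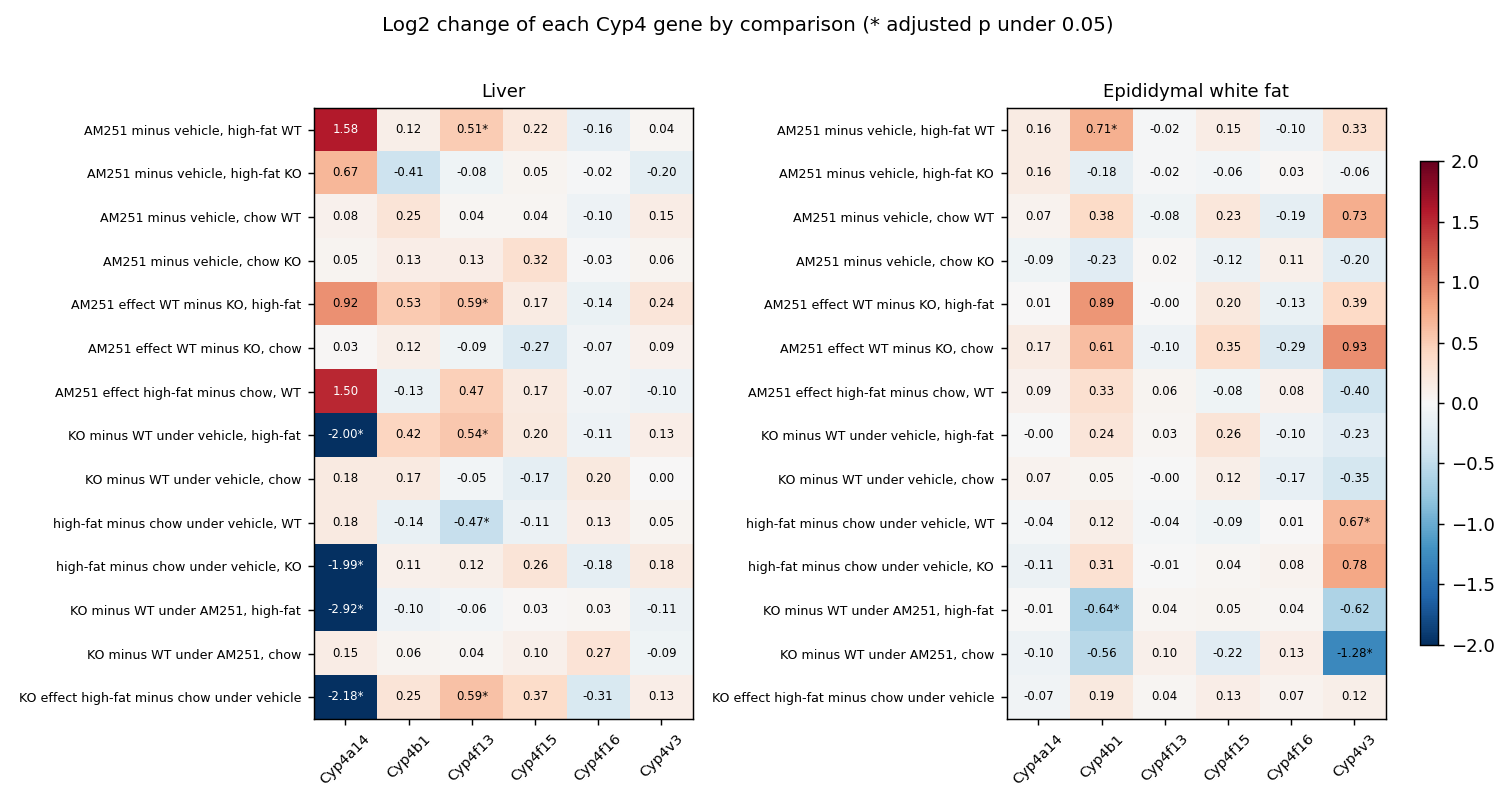
Log2 change of each Cyp4 gene (columns) in 14 comparisons each of liver (left) and fat (right), with colour limited to the range from -2 to 2 and a star where the adjusted p was under 0.05. Stars lie under Cyp4a14 and Cyp4f13 in liver and under Cyp4b1 and Cyp4v3 in fat.

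Cyp4a14, the member of the PPAR alpha-driven Cyp4a group, was high in liver of high-fat wild-type mice given AM251 and low in liver of high-fat knockouts under either treatment. In high-fat wild-type mice its log2 intensity was 10.9, 10.65, 9.21, 10.74 and 11.4 under vehicle and 12.19, 12.51, 12.18, 11.78 and 12.17 under AM251. In high-fat knockouts it was 9.52, 9.29, 8.56 and 6.94 under vehicle and 11.24, 8.62, 9.71, 8.29 and 8.37 under AM251. The AM251 arrays of wild-type mice all lay above their vehicle arrays, and above every knockout array; among vehicle arrays the highest knockout value, 9.52, passed the lowest wild-type value, 9.21. On chow the 20 arrays of the 4 groups overlapped, with group means of 10.4 ± 0.52 (wild-type vehicle), 10.48 ± 0.77 (wild-type AM251), 10.57 ± 0.47 (knockout vehicle) and 10.63 ± 0.43 (knockout AM251; SD, n = 5 each).

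On high-fat diet Cyp4a14 was lower in knockouts than in wild-type mice by 4.01-fold under vehicle (log2 -2 ± 0.47 SE, 95% interval -2.96 to -1.05, adjusted p = 0.0227) and by 7.56-fold under AM251 (log2 -2.92 ± 0.45, -3.82 to -2.02, adjusted p = 3.74e-05). The fold under vehicle rests on few arrays. Without knockout vehicle array 44, the lowest, it was -1.46 with an adjusted p of 0.217, and the call also ended without knockout array 42 (0.0719) or wild-type vehicle arrays 2 (0.0678), 4 (0.0597) or 5 (0.0723), or with only the compared groups in the fit (0.0814). The difference under AM251 was called without each of the 39 liver arrays in turn (log2 -3.42 to -2.68). Only arrays of the compared groups move this log2 value, and the others act through the shared spread alone. The difference was -3.42 without knockout AM251 array 45, whose value of 11.24 stood above the other 4.

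In knockouts under vehicle Cyp4a14 was 3.98-fold lower on high-fat diet than on chow (log2 -1.99 ± 0.47, adjusted p = 0.00333), with no overlap between the groups, as for 12.5% of all genes in either direction, and this was called without each array in turn (-2.31 to -1.45). In wild-type mice the same diet difference was 0.18. The difference between these 2 diet effects, which is also the difference of the genotype effect between diets, was -2.18 ± 0.65 (95% interval -3.49 to -0.86, adjusted p = 0.0467). It lay so close to the threshold that the call held in 17 of the 39 fits without 1 array, with log2 values of -2.52 to -1.63 and an adjusted p of up to 0.15 (without high-fat knockout vehicle array 44). The knockout vehicle arrays of high-fat mice enter all of these comparisons.

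The AM251 difference of Cyp4a14 in high-fat wild-type liver did not pass the threshold. It was 1.58 ± 0.45 on the log2 scale, 3-fold, with a 95% interval of 0.68 to 2.49 and an adjusted p of 0.0526, although the 5 AM251 arrays all lay above the 5 vehicle arrays. These groups did not overlap, in either direction, for 3.81% of genes. The adjusted p ranged from 0.0138 to 0.0975 over 7 other settings, 4 of which passed, and from 0.017 to 0.232 without 1 array, where 8 of 39 passed. Those 8 were without high-fat knockout AM251 array 45 or 48, high-fat knockout vehicle array 40 or 44, high-fat wild-type vehicle array 5, chow knockout vehicle array 17 or chow wild-type AM251 array 8 or 11; without array 45 it was 0.017. In high-fat knockouts the AM251 change of Cyp4a14 was 0.67, and the difference between genotypes, 0.92, was not called. The AM251 effect was 1.5 ± 0.63 larger on high-fat diet than on chow (adjusted p = 0.611), so a difference between diets was not shown either.

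Cyp4f13, an eicosanoid and long-chain fatty acid hydroxylase, was low in liver in 1 group, high-fat wild-type mice under vehicle, and lay within a narrow band in the other 7. In high-fat wild-type mice its log2 intensity was 8.58, 8.13, 8.6, 8.22 and 8.69 under vehicle and 8.97, 9.08, 8.97, 8.77 and 8.98 under AM251. In chow wild-type mice under vehicle it was 8.76, 8.87, 8.96, 8.97 and 8.99, and in high-fat knockouts under vehicle 8.93, 9.04, 8.94 and 9. The 5 low arrays did not overlap any of these 3 groups, which held for 3.81% (AM251), 2.91% (diet) and 5.66% (genotype) of all genes in either direction. The other 7 groups had means of 8.86 to 8.99.

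AM251 raised Cyp4f13 1.42-fold in high-fat wild-type liver (log2 0.51 ± 0.089, 95% interval 0.33 to 0.69, adjusted p = 0.000381). In high-fat knockouts the change was -0.08, and the difference between genotypes was 0.59 ± 0.13 (adjusted p = 0.0181). Without high-fat wild-type vehicle array 4 its adjusted p was 0.0522, and it was called in the other 38 fits without 1 array (0.51 to 0.65 over all 39). The high-fat diet lowered it 1.38-fold in wild-type liver (log2 -0.47 ± 0.089, adjusted p = 0.00202), and high-fat knockouts were 1.45-fold above high-fat wild-type mice under vehicle (log2 0.54 ± 0.094, adjusted p = 0.00144). The genotype effect under vehicle differed between diets by 0.59 ± 0.13 (adjusted p = 0.00827). All of these comparisons draw on the same 5 high-fat wild-type vehicle arrays, so they are not independent sightings of a change. The mean of the 6 measured adipocyte markers was highest in that liver group, at 5.33 (arrays 4.89 to 5.67). The other 7 group means were 4.63 to 4.95, and arrays of high-fat wild-type mice given AM251 ranged from 4.61 to 5.48. The markers did not move as a set. Of the 6 markers 2 were called higher on high-fat diet than on chow in wild-type liver (median -0.09), 1 was lower with AM251 (median -0.08) and 1 was lower in knockouts (median -0.05). Their part in the Cyp4f13 result was not tested.

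In fat Cyp4f13 was not called in any comparison and reached an unadjusted p under 0.05 in none, and its liver effects differed from those in fat: by 0.53 ± 0.12 for AM251 on high-fat diet (adjusted p = 0.00635) and by -0.43 ± 0.12 for high-fat against chow diet (adjusted p = 0.00788). With only the compared groups in the fit the adjusted p was 0.0791 for the diet effect in liver (0.0829 with the shared array number as a block), 0.0525 for knockout against wild-type, 0.0603 for the difference of the genotype effect between diets and 0.0942 for the tissue difference of AM251, whereas the AM251 effect itself passed in 7 of 7 other settings. Of these settings the mean of all probe sets left Cyp4f13 itself unchanged, as it has 1 probe set. The difference of the AM251 effect between diets, 0.47 ± 0.13, was not called (adjusted p = 0.12; 0.0415 without high-fat wild-type vehicle array 5).

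**Figure D3:**
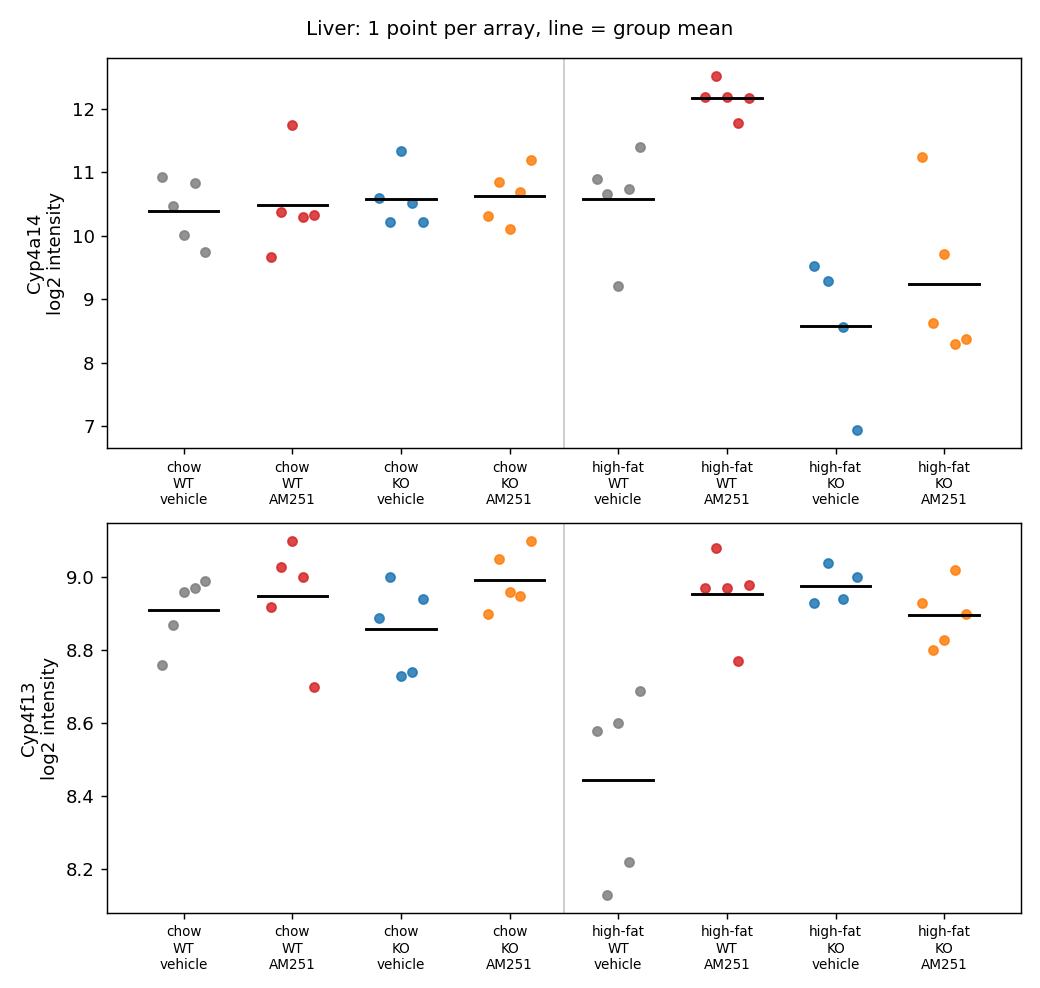
Log2 intensity of Cyp4a14 (upper panel) and Cyp4f13 (lower panel) in each liver array, by group, with a line at the group mean. Cyp4a14 reaches 12.51 in a high-fat wild-type AM251 array and falls to 6.94 in a high-fat knockout vehicle array, and the 5 high-fat wild-type vehicle arrays of Cyp4f13 lie at 8.13 to 8.69.

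The neighbours of Cyp4f13 did not share these calls. Cyp4f15, whose start is also preceded by a reverse CCAAT box, changed by 0.22 ± 0.096 with AM251 in high-fat wild-type liver (adjusted p = 0.354; 0.32 with 0.0476 without AM251 array 38, its lowest). It was higher by 0.32 ± 0.096 with AM251 in chow knockouts (adjusted p = 0.138). The groups did not overlap, as for 1.32% of all genes in either direction. Chow knockout vehicle array 15 lay at 10.44 and the other 4 at 10.82 to 10.92. On high-fat diet Cyp4f15 was 0.26 ± 0.1 above chow in knockout liver (adjusted p = 0.0754). Cyp4f16 had log2 changes of -0.31 to 0.27 over the 31 comparisons; the highest was knockout against wild-type under AM251 in chow liver (0.27 ± 0.099, adjusted p = 0.222). No test of a difference between Cyp4f13 and its neighbours was made.

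Cyp4b1 in fat was high in high-fat wild-type mice given AM251. Its log2 intensity in high-fat wild-type mice was 10.64, 10.8, 10.55, 10.73 and 10.94 under vehicle and 11.49, 11.02, 11.78, 11.14 and 11.76 under AM251. In high-fat knockouts it was 11.08, 10.97 and 10.88 under vehicle and 11.36, 10.49, 10.55, 11 and 10.59 under AM251. The wild-type groups did not overlap, as for 2.61% of all genes, while the knockout AM251 arrays spread to either side of the vehicle arrays. On chow, wild-type means were 10.62 ± 0.22 under vehicle and 11 ± 0.15 under AM251 (SD, n = 5 each), and knockout means were 10.67 ± 0.09 (SD, n = 5) and 10.44 ± 0.22 (SD, n = 3).

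AM251 raised Cyp4b1 1.63-fold in high-fat wild-type fat (log2 0.71 ± 0.15, 95% interval 0.41 to 1, adjusted p = 0.0108). The call ended without AM251 array 35 (0.62, adjusted p = 0.0606) or 37 (0.63, 0.0682), without vehicle array 4 (0.66, 0.0506) and with only the compared groups in the fit (0.105). On chow the change was 0.38 ± 0.15 and was not called (adjusted p = 0.256). The AM251 effect was larger in wild-type than in knockout mice by 0.89 ± 0.22 on high-fat diet (95% interval 0.44 to 1.34, adjusted p = 0.0576) and by 0.61 ± 0.22 on chow (adjusted p = 0.207), neither of which was called. Under AM251, high-fat knockouts were 1.56-fold below wild-type mice (log2 -0.64 ± 0.15, adjusted p = 0.00236; 0.0514 with only the compared groups in the fit), and chow knockouts were lower by -0.56 ± 0.17 (adjusted p = 0.0558), with no overlap, as for 12.4% of all genes. The AM251-treated wild-type arrays are common to the treatment comparison and the genotype comparison.

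High-fat knockout AM251 array 45 stood apart in fat. It had the highest Cyp4b1 (11.36) and Cyp4v3 (11.31) of its group, a Cnr1 of 4.95 against 6.27 to 6.76 in the other 4 arrays, and higher marker means for endothelial cells (10.21 against 9.68 to 9.86), macrophages (7.5 against 6.68 to 6.86) and adipocytes (11.99 against 11.71 to 11.83). Without it the difference of the AM251 effect on Cyp4b1 between genotypes was 1.03 with an adjusted p of 0.0138. It also passed without array 49 of that group (0.94, 0.0481) and without high-fat wild-type AM251 array 34 (0.99, 0.0174) or 36 (0.96, 0.0453).

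Endothelial markers moved beside Cyp4b1, a gene best known from lung. In high-fat wild-type fat AM251 raised 4 of 8 endothelial markers (median log2 change 0.40; all genes -0.01), whose mean level was 10.1 under AM251 (arrays 9.82 to 10.47) and 9.75 under vehicle (9.52 to 10.02). Of 8 macrophage markers 1 fell (median -0.25), and of the 6 mesothelial and 6 adipocyte markers 0 were called (medians 0.20 and 0.04). Markers of epididymis and testis were called in 0 of 6 (median 0.35), but their mean was 8.34 in AM251 array 36 and 7.28 in vehicle array 3, against 5.05 to 6.1 in the other 8 arrays. Without array 36 the Cyp4b1 change was 0.78 (adjusted p = 0.00872), and without array 3 it was 0.72 (0.0206). Between genotypes under AM251 on high-fat diet, 5 of 8 macrophage and 2 of 8 endothelial markers were lower in knockouts (medians -0.5 and -0.31). Over the 36 fat arrays Cyp4b1 had r = 0.72 with the endothelial mean, and 0.65 for deviations from group means. Their part in the Cyp4b1 result was not tested, and in bulk tissue more cells of a type cannot be told apart from more RNA per cell. In liver Cyp4b1 was not called, with 3 comparisons at an unadjusted p under 0.05. The largest of its AM251 changes there was -0.41 ± 0.18 in high-fat knockouts (adjusted p = 0.999).

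Cyp4v3 in fat differed by genotype among AM251-treated mice on chow and by diet among vehicle-treated wild-type mice. On chow its log2 intensity in wild-type mice was 10.84, 9.93, 10.61, 9.42 and 9.79 under vehicle and 10.92, 11.25, 10.76, 10.49 and 10.82 under AM251. In chow knockouts it was 10.28, 9.41, 9.75, 9.84 and 9.56 under vehicle and 9.43, 9.57 and 9.7 under AM251. The wild-type vehicle arrays spread over the range of both knockout groups. The AM251 arrays of the 2 genotypes lay apart, as for 12.4% of all genes in either direction. On high-fat diet the wild-type means were 10.78 ± 0.19 under vehicle and 11.11 ± 0.23 under AM251 (SD, n = 5 each), and the knockout means 10.55 ± 0.5 (SD, n = 3) and 10.49 ± 0.48 (SD, n = 5).

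Under AM251, Cyp4v3 was 2.43-fold lower in knockouts than in wild-type mice on chow (log2 -1.28 ± 0.26, 95% interval -1.81 to -0.76, adjusted p = 0.00342). The call held in 6 of 6 other settings, of which the mean of all probe sets left Cyp4v3 itself unchanged. It also held without each of the 36 arrays in turn (-1.37 to -1.18). Only the 3 knockout and 5 wild-type AM251 arrays on chow can move the log2 value. On high-fat diet this difference was -0.62 ± 0.22 (adjusted p = 0.0547; -0.83 with 0.00572 without array 45). AM251 against vehicle in chow wild-type mice gave 0.73 ± 0.22, 1.66-fold, which was not called (adjusted p = 0.19). Its size differed between genotypes by 0.93 ± 0.34 (not called, adjusted p = 0.213). Macrophage and endothelial markers gave 0 calls in the chow comparison of genotypes under AM251 (medians -0.34 and -0.21).

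The high-fat diet raised Cyp4v3 1.59-fold in wild-type fat under vehicle (log2 0.67 ± 0.22, adjusted p = 0.0266), in a comparison where 24.5% of all genes were called. The groups overlapped, and the call ended without chow vehicle array 2 (0.0626), 4 (0.49, 0.118) or 5 (0.0757), without high-fat vehicle array 1 (0.0586) or 6 (0.0607), with array weights (0.0778), with only the compared groups in the fit (0.0646) and with the shared array number as a block (0.58, 0.106). In knockouts the difference was 0.78 ± 0.26 with 3 high-fat arrays (adjusted p = 0.438). In the wild-type diet comparison 6 of 8 macrophage markers rose (median 0.9; mean level 8.23 on high-fat diet and 6.88 on chow) and 4 of 6 mesothelial markers fell (median -0.62). Of 8 endothelial markers 1 rose and 3 fell (median -0.11), and of 6 adipocyte markers 1 rose and 2 fell (median 0.01). Their part in the Cyp4v3 result was not tested. In liver, where Cyp4v3 was among the brightest genes, it was not called in any comparison, nor did any liver comparison of it reach an unadjusted p under 0.05.

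**Figure D4:**
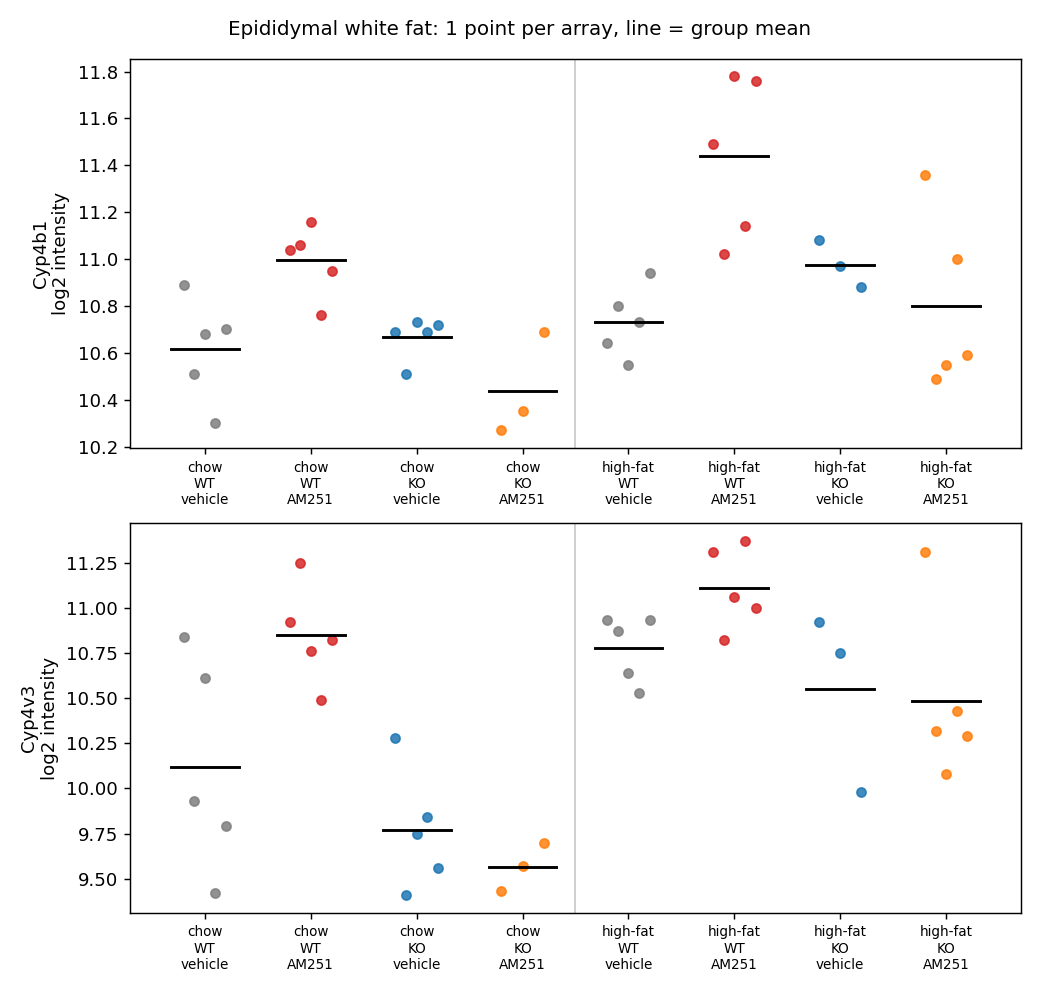
Log2 intensity of Cyp4b1 (upper panel) and Cyp4v3 (lower panel) in each fat array, by group, with a line at the group mean. High-fat wild-type AM251 arrays have the highest group means, 11.44 for Cyp4b1 and 11.11 for Cyp4v3, and chow knockout AM251 arrays the lowest, 10.44 and 9.57.

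Cyp4b1 and Cyp4v3 varied together over the fat arrays. Among the 30 pairs of members within a tissue this pair had Pearson's r = 0.74 and Spearman's rho = 0.78 over 36 arrays (two-sided permutation p = 1e-05 for each, the smallest that the resamples can give; adjusted p = 3e-04 over the 30 pairs). For all 30 pairs the resamples moved values freely across the groups of a tissue. Differences between groups that 2 members share can therefore give a small p by themselves, and no p was computed for deviations from group means. Without the 2 arrays farthest from the median of Cyp4b1 r was 0.79, and for deviations from group means it was 0.58, so that arrays of the same group that were high in Cyp4b1 tended to be high in Cyp4v3. The endothelial marker mean had r = 0.48 with Cyp4v3 and the macrophage mean 0.61. These values fell to 0.41 and 0.35 for deviations from group means. Genes outside the family had a higher r in fat than this pair, such as Fbln5 with Cyp4b1 (0.9) and Pamr1 with Cyp4v3 (0.95). How many genes reach 0.74 with either member was not counted. In liver Cyp4f15 had r = 0.46 with Cyp4v3 (permutation, adjusted p = 0.0455) and -0.46 with Cyp4f16 (0.0455), with Spearman's rho of 0.37 and -0.36 (adjusted p = 0.134 each). Without the 2 arrays farthest from the median of Cyp4f15 these r were 0.22 and -0.3, so the pooled relations rest in part on those arrays, while deviations from group means gave 0.55 and -0.45.

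**Figure D5:**
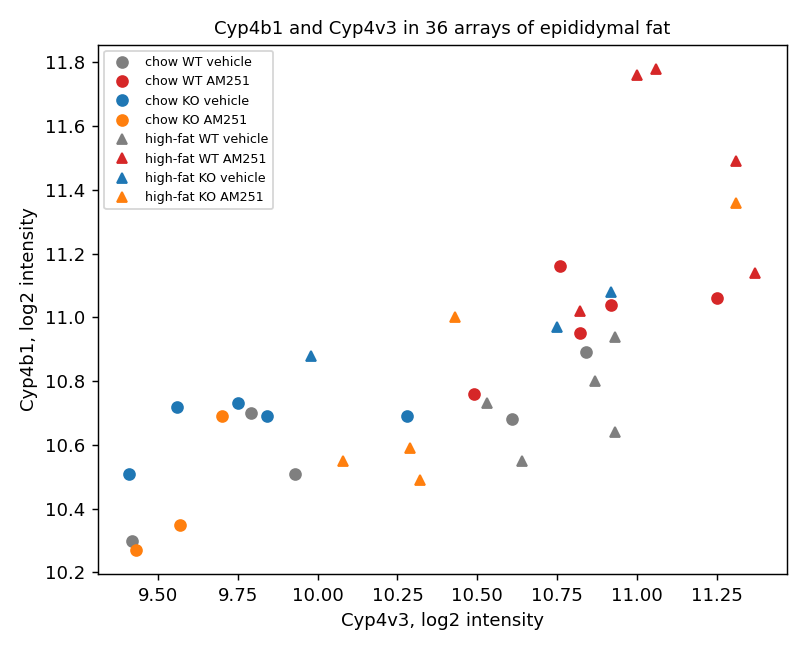
Log2 intensity of Cyp4b1 (vertical axis) against Cyp4v3 (horizontal axis) in the 36 fat arrays, 1 point per array, coloured by genotype and treatment with circles for chow and triangles for high-fat diet. The points rise from the chow knockout AM251 arrays at the lower left to the high-fat wild-type AM251 arrays at the upper right (r = 0.74).

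The genes whose pattern over the arrays of a tissue was most like that of a member differed from member to member. Cyp4a14 in liver was most like Retsat (r = 0.82), a retinol saturase, Aldh1a1 (0.8), a retinal dehydrogenase, and Eci1 (0.8), an isomerase of mitochondrial fatty acid oxidation, over 39 arrays and 9566 genes. Cyp4f13 was most like Serpina1e (0.8), Lifr (0.78) and Hsd3b5 (0.77), a steroid dehydrogenase of male liver. For deviations from group means these values fell to 0.48, 0.44 and 0.51, while those of Cyp4a14 were 0.76, 0.64 and 0.62. Cyp4f15 was most like Akr1c13 (0.78), Sult1d1 (0.76) and Abca8a (0.75), and Cyp4b1 in liver was most like Oit3 (0.85), Add3 (0.81) and Fcgr2b (0.81).

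In fat Cyp4b1 was most like Fbln5 (r = 0.9), an elastic fibre protein, Cldn15 (0.89) and Ppfibp1 (0.88), over 36 arrays and 9568 genes. Cyp4v3 was most like Pamr1 (0.95), Sfrp5 (0.94), a secreted Wnt inhibitor of adipose tissue, and Crtac1 (0.93). The closest genes of Cyp4f16 were Nufip1 in fat (0.76) and Galns in liver (0.68), and the closest of Cyp4f13 in fat was Lin37 (0.69). These values describe the same arrays from which the genes were picked and carry no test.

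A further 7 genes with a Cyp4 symbol were measured (Cyp4a29, Cyp4a30b, Cyp4b1-ps2, Cyp4f17, Cyp4f18, Cyp4f39 and Cyp4x1). Cyp4f17 was lower in chow knockout than in chow wild-type liver under vehicle (log2 -0.55 ± 0.16, adjusted p = 0.0312) and higher on high-fat diet than on chow in knockouts (0.57 ± 0.17, adjusted p = 0.0186), which share the chow knockout vehicle arrays. Cyp4f18, a leukotriene hydroxylase of myeloid cells, was lower in high-fat knockout fat under AM251 (-0.58 ± 0.17, adjusted p = 0.0146), where 5 of 8 macrophage markers were also lower (median -0.5). Cyp4a30b was lower on high-fat diet in knockout liver (-0.3 ± 0.11, adjusted p = 0.0454), and the diet effect on Cyp4f39 differed between liver and fat (-0.57 ± 0.17, adjusted p = 0.0171).

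The regulators looked at were Ppara, Ppard, Pparg, Rxra, Nr1i2, Nr1i3, Hnf4a, Srebf1 and Ppargc1a. Only some of their changes are given here, and their part in the Cyp4 results was not tested. The xenobiotic receptors Nr1i3 (0.75, adjusted p = 0.00536) and Nr1i2 (0.59, adjusted p = 0.0128) rose with AM251 in high-fat wild-type liver, where Cyp4f13 rose. Ppara changed there by 0.46 ± 0.17 and was not called (adjusted p = 0.216). In high-fat liver under vehicle, where Cyp4a14 was lower in knockouts, Pparg was lower as well (-1.19, adjusted p = 0.000326), and under AM251 both Pparg (-0.87, adjusted p = 0.00155) and Nr1i3 (-0.62, adjusted p = 0.0267) were lower. Ppara itself was higher on high-fat diet than on chow in knockout liver (1.02, adjusted p = 0.000157), the comparison in which Cyp4a14 was lower.

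Calls among the partners of omega-oxidation were few and of either sign. Of 10 measured genes for the cytochrome P450 electron donors and the dehydrogenases that act after omega-hydroxylation, 1 rose with AM251 in high-fat wild-type liver, Cyb5a, an electron donor of cytochrome P450 enzymes (0.34 ± 0.077, adjusted p = 0.00767; list median 0.12). Aldh3a2, the fatty aldehyde dehydrogenase, was lower in high-fat knockout liver, by -0.79 under vehicle (adjusted p = 0.00564) and by -1.08 under AM251 (adjusted p = 6.27e-06), the 2 comparisons of genotypes in which Cyp4a14 was lower. In knockout liver on high-fat diet against chow, where Cyp4a14 was lower too, 17% of all genes were called. There Aldh9a1 (0.76, adjusted p = 0.000715) and Aldh2 (1.12, adjusted p = 0.0477) were higher and 0 of 10 lower.

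Peroxisomal genes for the shortening of dicarboxylic acids gave 2 higher and 0 lower of 12 with AM251 in high-fat wild-type liver (median 0.41, all genes -0.01), namely Eci2 (0.78, adjusted p = 0.000231) and Acot4 (0.67, adjusted p = 0.0182). In high-fat knockouts AM251 called 0 of 12 (median 0.02). Knockouts had 3 of 12 lower in high-fat liver under vehicle (median -0.24) and 6 of 12 lower under AM251 (median -0.57), among them Ehhadh, the peroxisomal bifunctional enzyme (-0.83), and Hsd17b4 (-0.52).

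PPAR alpha targets outside the Cyp4 family moved the same way as Cyp4a14 in some liver comparisons but not in another. With AM251 in high-fat wild-type liver 10 of 24 rose and 0 fell (median 0.41, all genes -0.01), led by the acyl-CoA thioesterase Acot1 (2.29, adjusted p = 1.7e-05) and the mitochondrial trifunctional protein subunits Hadhb (0.65, adjusted p = 1.21e-05) and Hadha (0.51, adjusted p = 0.000333). In high-fat knockouts 0 of 24 were called (median -0.07), and for 5 of 24 the AM251 effect was larger in wild-type mice by test (median 0.54). Knockouts had 6 of 24 lower in high-fat liver under vehicle (median -0.14) and 18 of 24 lower under AM251 (median -0.68), including the pantetheinase Vnn1 (-2.67) and the thioesterase Acot2 (-1.51). In knockout liver on high-fat diet against chow, where Cyp4a14 was 3.98-fold lower, 5 of 24 were higher and 1 lower (median 0.06, all genes -0.08), among the higher ones the carnitine palmitoyltransferase Cpt1a (0.60, adjusted p = 0.0015), Hadhb (0.41, adjusted p = 0.00351) and Hadha (0.35, adjusted p = 0.0102). In this last comparison 17% of all genes were called, 1652 higher and 1600 lower, so the few calls show no clear turn of the targets as a set. The counts of targets share the groups of the Cyp4a14 comparisons. In fat, where Cyp4a14 was dim, 4 of 24 rose with AM251 in high-fat wild-type mice (median 0.15), among them Vnn1 (1.93, adjusted p = 0.00598) and Pdk4 (1.64, adjusted p = 0.00611).

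Of 17 measured genes that handle eicosanoids, 1 rose with AM251 in high-fat wild-type liver, the prostaglandin dehydrogenase Hpgd (0.53, adjusted p = 0.0452). In high-fat wild-type fat 1 rose, the soluble epoxide hydrolase Ephx2 (0.99, adjusted p = 0.00598), in the comparison in which Cyp4b1 rose. The median changes of the list were 0 in that liver comparison and -0.02 in that fat comparison.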

How the data were processed

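RNA of liver and epididymal fat was hybridised as biotin-labelled cRNA to 1-colour arrays, per the labels' protocols. The deposited values are intensity values per probe set on a linear scale, made by the authors with RMA (background correction, normalization and summary of probes), per the submitters' processing notes; the version is not given in the sources used here. The deposited intensities were converted to log2 here. Of 38385 probe sets, 24543 were in the array annotation, 24478 with 1 symbol and 65 with several, which were left out. Where a gene (19147 in all) had several probe sets, the brightest on average within the tissue stood for it.

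The model was limma's (version 3.58.1; R 4.3.3, package data.table of version 1.17.8), with 1 mean per group over the 8 groups of a tissue, or all 16 for tissue differences, and moderated two-sided tests (eBayes) were adjusted over all genes by Benjamini-Hochberg at 0.05. Changes are log2 ± standard error. The number of arrays limits the precision. Members and gene lists were chosen with earlier results of these data known, and 6 of the 31 comparisons were added after values were seen. Named genes are all members, further Cyp4 genes past the threshold, fixed regulators, up to 3 list genes with the smallest p per comparison and the 3 genes most correlated with each member.

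Alternatives were quantile normalization, the mean of all probe sets, leaving out genes below the median level, fitting only the compared groups, array weights, trended and robust variances, each array left out, liver chow knockout vehicle arrays 15 and 17 left out together (chosen after seeing the data) and the shared array number as a block. An array outside a comparison does not move its log2 change when left out. The mean of all probe sets did not change a member's values, since each member has 1 probe set. Upstream sequences are RefSeq's, of assembly GRCm38.p6.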

Additional observations from a re-analysis of the deposited data

Results flagged for a closer look

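Of 84 groups of 4 or 5 arrays tested for an array far from the rest, 3 had one, and chance gives about 1 in 20. Cyp4f15 in liver was 10.44 in chow knockout vehicle array 15, against 10.82 to 10.92 in the other 4 arrays (gap 0.78 of the range). Cyp4b1 in fat was 10.51 in chow knockout vehicle array 16, against 10.69 to 10.73 (0.81). Cyp4v3 in fat was 11.31 in high-fat knockout AM251 array 45, against 10.08 to 10.43 (0.72).

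A test of the difference between 2 groups' effects was passed 5 times. In liver the AM251 effect on Cyp4f13 was larger in wild-type than in knockout mice on high-fat diet by 0.59 on the log2 scale (adjusted p = 0.0181). The genotype effect under vehicle on Cyp4a14 was lower on high-fat diet than on chow, by -2.18 (adjusted p = 0.0467), and that on Cyp4f13 was higher by 0.59 (adjusted p = 0.00827). Cyp4f13 also differed between liver and fat, by 0.53 for AM251 on high-fat diet (adjusted p = 0.00635) and by -0.43 for the high-fat diet (adjusted p = 0.00788).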

How the results depend on the processing

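Counts of called members stayed within 1.5 times the count given in 609 refits and moved further in 49. For the 23 results of single members that were followed, 0 refits turned the direction, 1051 stayed on the same side of the threshold, 51 lost the call and 41 gained one. Many refits leave out an array of no compared group, which keeps the log2 change and acts through the shared spread alone. Their agreement is thus partly set in advance. Each of 75 arrays was left out in turn. The number of members called then ran from 1 to 3 for AM251 against vehicle (2 with all arrays), 0 to 2 for its difference between genotypes (1), 0 to 1 for its difference between diets (0), 1 to 2 for knockout against wild-type under vehicle (2), 3 to 5 for the same under AM251 (3), and 1 to 2 for the genotype effect differing between diets (2). With only the compared groups in the fit, 0 members were called for knockout against wild-type under vehicle, 1 for high-fat against chow (3 otherwise), 1 for tissue differences (2 otherwise) and 0 for the genotype effect differing between diets; fewer arrays then estimate the spread. Leaving out dim genes gave 2 members for the genotype difference of AM251 and 5 for knockout against wild-type under AM251, and array weights gave 2 and 5. For the genotype effect differing between diets array weights, the trended and robust variance, and leaving out liver chow knockout vehicle arrays 15 and 17 each gave 1 member, since Cyp4a14 was no longer called. Array numbers are shared by chow and high-fat wild-type vehicle mice, and by liver and fat. Between arrays with the same number, correlations of deviations from group means were -0.167 to 0.217 over 9 pairs and -0.123 to 0.199 over 30. These values did not show pairing. However, 2 tissues of 1 mouse need not deviate alike, so a mouse behind a shared number was not excluded. With the number as a replicate block, 1 member was called for high-fat against chow in place of 3, with Cyp4f13 in wild-type liver (0.0829) and Cyp4v3 in wild-type fat (0.106) no longer called, and 2 for tissue differences. The causes were not tested. Fits of a member's other probe sets could not be run, since each member has 1. Dim values, such as Cyp4a14 in fat, and groups of 3 to 5 arrays limit what can be seen.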

Other observations

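Liver array 38 of the high-fat wild-type AM251 group had the lowest value of its 5 arrays for Cyp4a14, Cyp4b1, Cyp4f13, Cyp4f15 and Cyp4v3. Its Cyp4a14 was 11.78 and its Cyp4f13 8.77. In liver, high-fat knockout AM251 array 45 had the highest Cyp4a14 of its group (11.24) and the highest Cyp4f15.

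In fat the AM251 comparisons of knockouts with wild-type mice also held lower PPAR alpha targets. On high-fat diet, where 15.2% of all genes were called, 10 of 24 were lower and 2 higher (median -0.2). On chow, where 3.39% of all genes were called, 3 were lower and 1 higher (median -0.09). Vnn1 on chow was lower by -1.72 (adjusted p = 0.0172), beside the lower Cyp4v3. In the chow comparison Pex11a, a peroxisome division factor, was higher in knockouts by 0.93 (adjusted p = 0.0101) and Pparg by 0.65 (adjusted p = 0.0335).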
